A study of Mus musculus with 6 samples.

Results

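The cells described here are immortalized mouse embryonic fibroblasts of genotype KDM5A-/- that carry an empty vector (EV), measured on 2 of the 6 Affymetrix M430 2.0 arrays of the study. The 2 arrays were chosen by their titles, which name the empty vector and a biological replicate number, and together they gave a level for 18194 genes. The other arrays came from the same null cells with wild-type KDM5A or with KDM5A-H483A put back, 2 arrays each, and no comparison with them is made here. All 3 groups share the loss of Kdm5a, the immortalization and a mixed strain background. The sources used here do not give how the cells were immortalized, how many embryos or clones they came from, or what separates the replicate cultures. Cultures were subconfluent, grew in serum and were released with trypsin before RNA extraction.

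Embryonic fibroblasts are mesenchymal cells grown out of minced embryos. They build the interstitial matrix of connective tissue, pull on it through actin and myosin, and answer to growth factors, serum lipids and thrombin. Fibroblasts from different places of the body keep different sets of homeobox genes active, so the expressed Hox genes are known as a positional record. KDM5A is a demethylase that removes methyl groups from lysine 4 of histone H3 and binds the retinoblastoma protein.

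A level in what follows is the deposited log2 RMA value of a gene's representative probe set, and each pair of levels gives replicate 1 and then replicate 2. RMA is a method that subtracts background, brings all arrays to 1 distribution and summarises the probes of a probe set. Levels ran from 2.18 to 13.97, with a median of 4.6 over the probe sets of each array. Across genes, which are not independent replicates, Pearson's r between the 2 arrays was 0.994. The pooled SD of a gene between the arrays was 0.161, and the median absolute difference was 0.133. Genes with levels under 5 had a pooled SD of 0.137, and those between 9 and 11 had 0.187. Because probes bind their targets unequally well, an order of genes by level is an order of array signal and only roughly one of RNA amount.

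Receptor genes of the nose, the vomeronasal organ and taste, which fibroblasts are not known to use, served to set a limit of detection. The 74 measured genes of this kind had a median level of 3.64, and their 95th percentile was 5.65. Of all 18194 genes, 8695 (47.8%) lay above that limit, and 9499 lay at or below it and are called near background. By construction 4 of the receptor genes exceeded the limit, namely Olfr64, Vmn1r44, Vmn2r1 and Tas2r108, and Olfr64 had levels of 6.77 and 6.88. A level between 5.65 and about 7 therefore overlaps with that of receptor genes. A gene's level came from the probe set with the highest mean over all 6 arrays, passing over IDs ending in _x_at where possible. The set used was therefore not always the brightest on these 2 arrays, as for Snai2, with 8.64 used and 11.77 on another. Genes with several probe sets still had more chances to pass. The limit was passed by 64.5% of the 9012 genes with several probe sets and by 31.4% of the 9182 genes with a single one. Counts of list members above the limit are to be read beside these shares and the 47.8% of all genes.

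**Figure D1:**
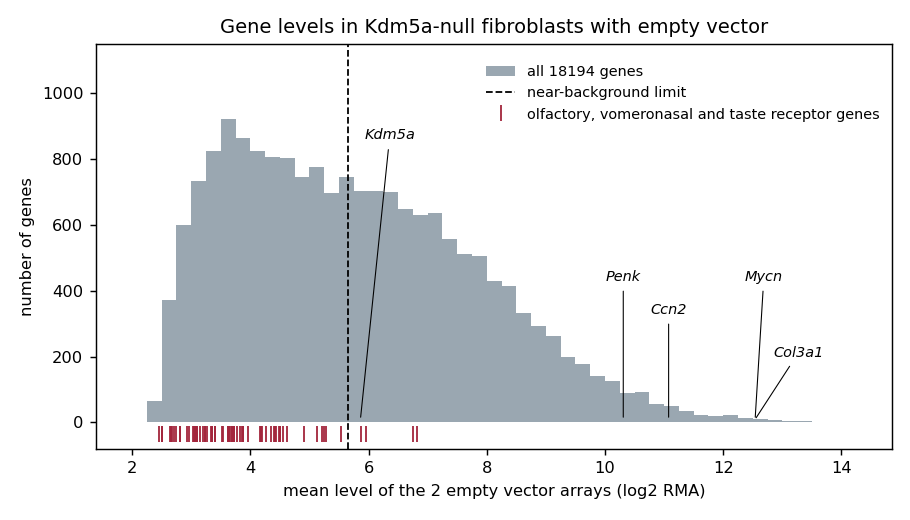
Histogram of the mean level of the 2 empty vector arrays for all 18194 genes (x axis, log2 RMA; y axis, number of genes), with the near-background limit of 5.65 as a dashed line and the 74 receptor genes as red ticks below the bars. Lines point to the means of Kdm5a (5.86), Penk (10.31), Ccn2 (11.08), Col3a1 (12.52) and Mycn (12.54), the last 4 of which lie in the thin upper tail that holds 3.09% of genes above 10.

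Kdm5a itself had levels of 5.89 and 5.83, just above the limit. A further probe set of Kdm5a read 5.63 and 5.85, and the remaining 4 lay between 3.08 and 4.23. Whether these probes lie inside the deleted stretch cannot be read from the sources used here. The levels therefore check neither the deletion nor a remaining transcript. The paralogues, which act on the same histone mark, were brighter. Kdm5b had levels of 7.77 and 7.28, and the X-linked Kdm5c had levels of 7.53 and 7.80. The Y-linked Kdm5d had levels of 6.47 and 6.57, which is within the range of the receptor genes.

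The brightest signals came from genes of the contractile cytoskeleton, the collagenous matrix and protein synthesis. Outside ribosomal protein genes, Actb was first with 13.97 on both arrays, and Actg1, the other cytoplasmic actin, had 13.53 and 13.75. Myh9, the heavy chain of non-muscle myosin, had levels of 13.67 and 13.83. Myl12a, a regulatory light chain of that myosin, had levels of 13.35 and 13.52. The actin monomer-binding thymosins Tmsb10 and Tmsb4x averaged 13.28 and 12.73. Acta2, the smooth muscle actin that marks myofibroblasts, stood with them at 13.02 and 13.12, and Vim, the intermediate filament of mesenchymal cells, at 12.80 and 12.77. Of 33 measured tubulin, actin and filament genes, 28 (84.8%) lay above the limit, beside 47.8% of all genes. Of the 33, 11 were among the brightest 1% of genes, which is 182 genes with a level of at least 11.09.

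Collagen subunits and the enzyme that crosslinks them made up the next group among the brightest 25 genes. Col5a2, a subunit of the collagen that starts fibrils, had levels of 13.29 and 13.33, and Col1a2, of type I collagen, had 13.24 and 13.17. Lox, the lysyl oxidase that crosslinks collagen and elastin, had levels of 12.66 and 12.71, and Fn1, fibronectin, had 12.51 and 12.67. Col3a1, of the fine fibrils of loose connective tissue, had levels of 12.70 and 12.35 on its brighter probe set and 9.93 and 9.66 on the other. Col3a1 ranked 26 among the 18194 genes.

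Growth and chromatin regulators stood at the same height. Hmga2, a chromatin protein of the embryo and of tumours that most adult tissues switch off, had levels of 12.88 and 13.37, and 1 of its other probe sets averaged 12.81. Tpt1, a growth-related protein under translational control, had levels of 13.41 and 13.37. Nedd4, a ubiquitin ligase that acts on membrane proteins, had 13.25 and 12.72 and, with an SD of 0.37, was the most variable of the 25. Its other probe sets differed in the opposite direction, with 10.81 and 11.26, and 10.36 and 10.72. Eif5a and Eif4g2, factors of translation, averaged 12.99 and 12.52. The list also held the phosphatase Ptp4a2, the phosphoprotein-binding Ywhab, the galectin Lgals1, the calcium-binding S100a6, the respiratory subunit Uqcrb and the LIM-domain protein Fhl1, with means from 12.51 to 12.95. Neighbours in this order could not be told apart, since 21 of the 24 steps between successive genes were smaller than the median SD of 0.11.

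Mycn, a MYC family transcription factor known for its role in progenitor cells of the embryo, needs its probe sets stated separately. Its representative probe set had levels of 12.44 and 12.63, which gave it rank 25 among all genes. The other probe sets of Mycn read 3.59 and 3.55, and 3.95 and 3.93, all near background. Each probe set gave nearly the same level on both arrays, so the gap between them was far larger than the replicate spread. Which of them follows the Mycn transcript in these cells was not tested. Of the 25 brightest genes 22 have other probe sets, and in 4 of these, namely Tpt1, Acta2, Mycn and Fhl1, all other probe sets lay below the limit. In 13 of the 22 another probe set exceeded 10. Over all genes with several probe sets, the median distance between the brightest and the dimmest was 2.01, and 2807 genes (31.1%) had probe sets more than 3 apart. Among the 409 genes of the lists below that lay above the limit and have further probe sets, 167 (40.8%) had none of these above it. They include Rspo2, Gnas, Grb10, Jund, Hoxd13, Osmr, Tgfbr2, Axl, Lgr4, Igf2, Smad3, Pdgfra, Inhba, Cebpb and Flt1, whose levels below are those of the brightest probe set alone.

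**Figure D2:**
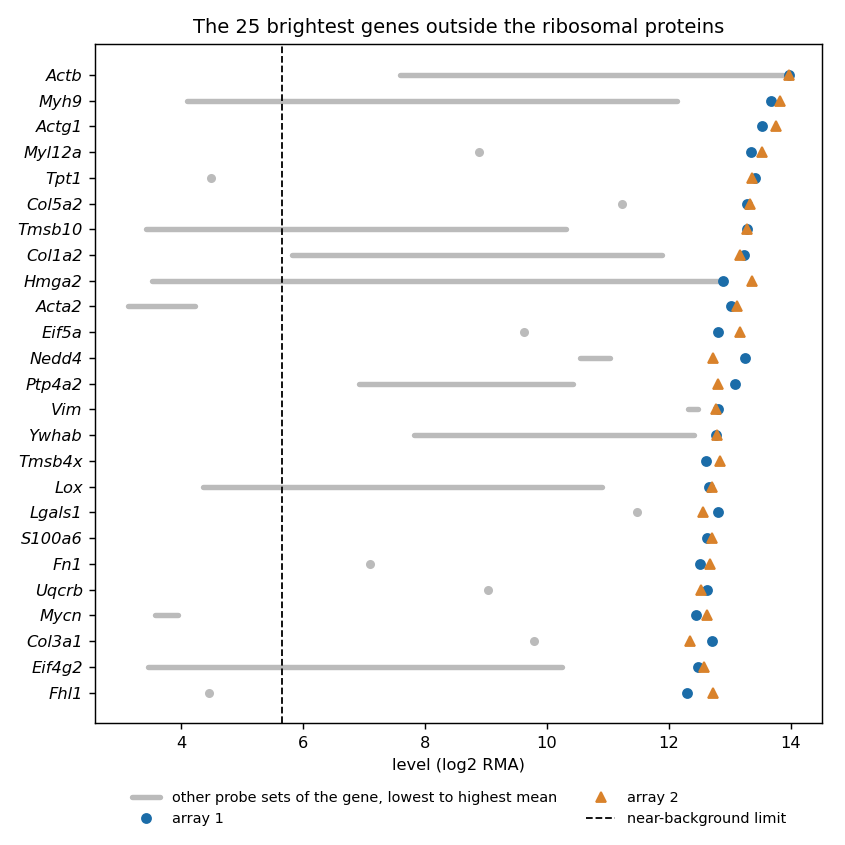
Levels of the 25 brightest genes outside ribosomal protein genes (log2 RMA, x axis), a row per gene in order of the mean, with a circle for array 1 and a triangle for array 2 of the empty vector cells. Grey bars span the lowest to highest mean of the gene's other probe sets (a grey dot where there is only 1), and the dashed line is the near-background limit. The 2 arrays nearly coincide from Actb at 13.97 down to Fhl1 at 12.51, while the other probe sets of Mycn, Tpt1, Acta2 and Fhl1 all lie below the limit of 5.65.

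Promoter sequences of 4 bright genes are shown because they span the range from a promoter without any CG dinucleotide to one dense in them. They come from RefSeq's GRCm38.p6 table and run from 250 bases before to 50 bases after the transcription start, on the strand of the gene. Capitals mark every CG and every match to TATAAA on either strand, where a match on the opposite strand reads TTTATA. Col3a1 at chr1:45311288-45311587, plus strand, held no CG and had TATAAA from base -117. Vim at chr2:13574061-13574360, plus strand, held 11 CG and had TATAAA from base -32. Mycn at chr12:12941787-12942086, minus strand, held 14 CG and no match to TATAAA. Hoxd13 at chr2:74667975-74668274, plus strand, held 37 CG and had matches from bases -124 and, on the opposite strand, -126, which overlap.
Col3a1: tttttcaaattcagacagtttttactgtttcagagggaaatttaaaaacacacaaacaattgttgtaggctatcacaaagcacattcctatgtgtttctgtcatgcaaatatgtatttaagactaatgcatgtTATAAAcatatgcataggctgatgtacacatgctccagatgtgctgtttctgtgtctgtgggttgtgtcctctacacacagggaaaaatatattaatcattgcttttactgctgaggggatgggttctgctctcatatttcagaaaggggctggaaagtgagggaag
Vim: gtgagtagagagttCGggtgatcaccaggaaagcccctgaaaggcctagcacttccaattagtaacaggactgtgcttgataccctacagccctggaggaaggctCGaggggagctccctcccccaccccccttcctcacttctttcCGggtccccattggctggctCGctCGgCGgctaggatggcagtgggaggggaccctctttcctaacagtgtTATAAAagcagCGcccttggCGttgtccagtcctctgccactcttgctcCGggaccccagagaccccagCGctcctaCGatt
Mycn: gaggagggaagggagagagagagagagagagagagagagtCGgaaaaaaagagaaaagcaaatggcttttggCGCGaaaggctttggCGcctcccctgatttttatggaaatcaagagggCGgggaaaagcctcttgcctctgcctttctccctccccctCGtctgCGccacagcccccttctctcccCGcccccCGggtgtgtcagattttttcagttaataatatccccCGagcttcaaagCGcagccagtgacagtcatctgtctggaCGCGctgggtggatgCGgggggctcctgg
Hoxd13: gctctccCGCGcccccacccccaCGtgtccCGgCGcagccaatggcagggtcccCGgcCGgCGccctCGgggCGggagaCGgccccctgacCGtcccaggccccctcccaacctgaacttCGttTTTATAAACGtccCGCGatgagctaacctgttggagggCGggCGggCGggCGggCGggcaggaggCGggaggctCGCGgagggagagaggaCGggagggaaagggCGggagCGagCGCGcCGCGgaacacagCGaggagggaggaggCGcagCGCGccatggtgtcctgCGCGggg

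Among the brightest 1% of genes, 150 of 182 had a promoter in the RefSeq table. TATAAA occurred on either strand in 16.7% of these 150 promoters, in 6.7% of the 7095 matched promoters of genes above the limit, and in 14.2% of all 27025 promoters of the table. A CArG box is the element that serum response factor binds, and only its strict form CCWWWWWWGG, with W for A or T, was searched. It was found in 3.33% of the brightest 1%, in 1.37% of genes above the limit and in 1.57% of all promoters. Among 29 matched promoters of tubulin, actin and filament genes 2 had the box. The strict form was present in the promoters of Actg1, Vcl, Cnn2, Myl9, Fhl1 and Srf. It was not found in those of Acta2, Cnn1, Tpm1, Tpm2, Myl12a, Myh9, Tmsb4x and Tmsb10. Forms with a C or G between the CC and the GG were not counted, and the Acta2 window holds ccctatatgg and ccttgtttgg. The median ratio of observed to expected CG was 0.77 in the brightest 1%, 0.80 in genes above the limit and 0.39 over the table. The table also holds promoters of genes without a level here, so its values are not those of the measured genes. Of all genes with a level 14453 of 18194 had a promoter, and of genes near background 7358 of 9499. Both are under the 80% needed, so no value is given for them. These matches describe letters in a window and show no binding.

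Levels of lineage markers were set beside the label of embryonic fibroblast. The lists were chosen with earlier results of these data known, so their counts are no independent check of the label. Of 24 measured fibroblast and mesenchyme markers, 22 (91.7%) lay above the limit, with a median level of 8.30, beside 47.8% and a median of 5.52 for all genes. Besides the collagens and Vim, the hyaluronan receptor Cd44 had levels of 11.60 and 12.28, and the mesenchymal cadherin Cdh11 had 10.52 and 10.62. The limb and skin mesenchyme factor Prrx1 had levels of 9.42 and 9.09, and Twist1, a regulator of mesenchymal fate, had 9.15 and 8.91. The PDGF receptors that define fibroblasts in many tissues were both present, Pdgfra with 8.37 and 7.98 and Pdgfrb with 8.41 and 8.22. Thy1, a surface marker of fibroblast subsets, averaged 7.54. The markers near background were Fap, a protease of activated stroma, with 3.39 and 3.37, and Lum, a proteoglycan, with 5.85 and 5.01, so that its arrays lay on either side of the limit.

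Myofibroblast and smooth muscle markers covered nearly the whole range of levels. Of 18 markers, 13 (72.2%) lay above the limit, with a median of 7.80. The share was 47.8% for all genes and 64.5% for those with several probe sets. Tagln, an actin-bundling protein, had levels of 11.17 and 11.31, and the tropomyosin gene Tpm2 had 11.17 and 10.83. Ccn2, a matricellular protein induced by TGF-beta and YAP, had levels of 10.91 and 11.24 on its only probe set. Cnn1, a calponin of contractile cells, averaged 8.53. Lower in the list but above the limit stood the smooth muscle actin Actg2 with 6.61 and 7.53, the myosin kinase Mylk with 7.08 and 6.73, and Smtn and Lmod1 with means of 6.74 and 6.12. Near background, Myh11, the smooth muscle myosin heavy chain, had 3.83 and 3.60. Myocd, the coactivator that drives the smooth muscle programme, had 4.71 and 4.80, and Des, desmin, had 5.28 and 5.23. Synpo2 and Ankrd1 were also near background.

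Markers of other cell types were mostly near background. Of 155 such genes, 33 (21.3%) exceeded the limit, beside 47.8% of all genes, the median was 4.42, and none was among the brightest 1%. Where such a gene had a low level, RNA from a few cells of that type and a little RNA in every cell cannot be told apart. The epithelial adhesion gene Cdh1 had levels of 2.86 and 2.81, and Epcam had 3.82 and 4.10. For endothelium, Pecam1 had 3.49 and 3.34 and Cdh5 had 3.95 and 4.14. The pan-leukocyte gene Ptprc had 2.76 and 3.18. The muscle determination gene Myod1 had 4.06 and 4.64, the fat hormone Adipoq had 3.01 and 3.10, and the mesothelial factor Wt1 had 3.45 and 3.50. The pluripotency genes Pou5f1 and Nanog had means of 2.96 and 3.27. All of these defining genes lay below the receptor-gene limit.

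The markers above the limit came from several lists. The highest was Cebpb, a transcription factor of early fat differentiation and of inflammation, with levels of 8.05 and 7.75, followed by Map2, a microtubule protein best known from neurons, with 7.84 and 7.82. Flt1, a VEGF receptor of endothelium, had levels of 7.32 and 7.72, and the related Kdr had 6.45 and 6.53. Prss2, a pancreatic trypsinogen, had 7.37 and 7.32. Stmn2, a tubulin-binding protein of growing axons, had 7.07 on both arrays. Cebpd, a relative of Cebpb, had 7.24 and 7.41. The remaining markers lay within the range that the receptor genes reached, the highest of them being Cldn3, a claudin of tight junctions, with 6.87 and 6.75. By list, 6 of 21 epithelial, 3 of 16 endothelial, 4 of 15 blood, 4 of 16 muscle, 3 of 14 cartilage and bone, 4 of 9 fat, 3 of 16 neuronal, 3 of 12 glial, 1 of 15 pluripotent or germ cell and 2 of 14 liver and pancreas markers exceeded the limit, and 0 of 7 mesothelial markers did.

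**Figure D3:**
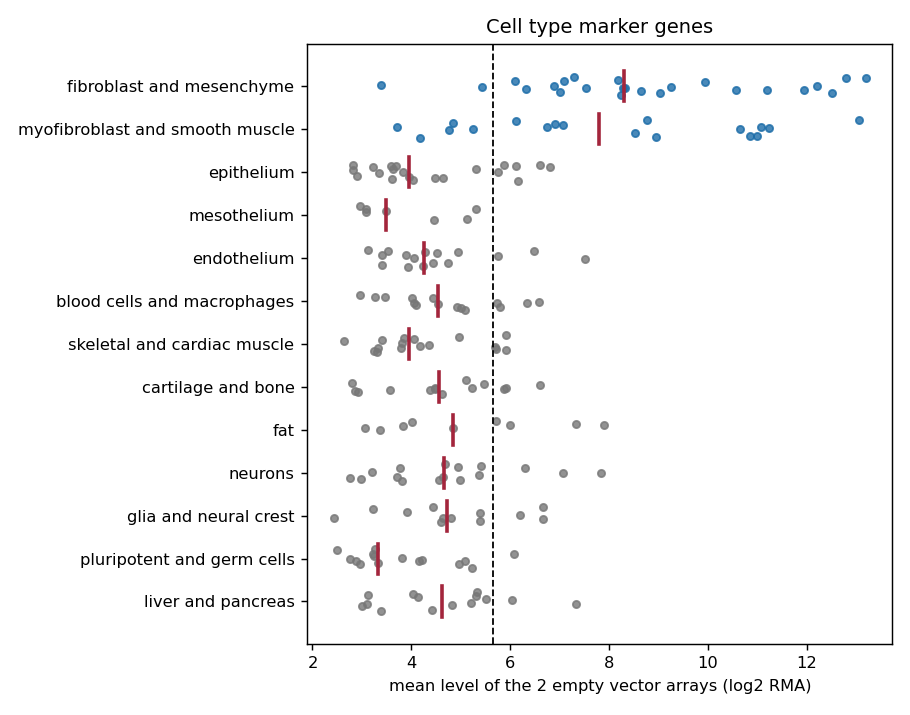
Levels of lineage markers (x axis, log2 RMA, mean of the 2 empty vector arrays), a row per cell type and a point per gene (scattered vertically for visibility), with the median of each list as a red bar and the near-background limit of 5.65 as a dashed line. Fibroblast and myofibroblast markers extend above 13, whereas the markers of all other cell types end at 7.90.

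Of 137 genes for matrix proteins and for the enzymes that process or degrade them, 90 (65.7%) exceeded the limit, beside 47.8% of all genes and 64.5% of those with several probe sets. Their median was 7.05, beside 5.52 for all genes, and 15 were among the brightest 1%. Of the 11 fibrillar collagen genes, 9 exceeded it, in the order Col5a2, Col1a2, Col3a1, Col1a1, Col5a1, Col11a1, Col5a3, Col27a1 and Col2a1. Col1a1 had levels of 12.33 and 12.11, Col5a1 had 10.82 and 10.90, and Col2a1, the collagen of cartilage, had 6.57 and 6.65. Col24a1 was near background with 2.53 and 2.49. Of 29 other collagens 12 exceeded the limit, led by Col4a1 of basement membranes with 11.08 and 11.31 and Col6a1 of microfibrils with 10.39 and 10.05. Chains of type IV collagen differed, since Col4a3 averaged 5.11 and Col4a4 averaged 4.04, both near background.

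Enzymes that fold and crosslink collagen lay above the limit in 20 of 23 cases (87.0%), beside 47.8% of all genes, with a median of 7.86. P4hb, a subunit of the prolyl hydroxylase, had levels of 11.52 and 11.42. The collagen chaperone Serpinh1 had levels of 11.33 and 11.15, and Pcolce, which enhances cleavage of procollagen, had 11.43 and 11.08. Glycoproteins and proteoglycans followed with 29 of 37 (78.4%) above the limit. Sparc, a collagen-binding matricellular protein, had levels of 12.12 and 11.97, and Mgp, an inhibitor of calcification, had 11.63 and 10.83. Eln, the elastin gene, was low with 6.28 and 6.16, while Fbln5, which helps to assemble elastic fibres, had 10.77 and 10.74. Basement membrane genes were above the limit in 7 of 14 cases, with Nid1 (nidogen) at 9.36 and 9.60 and Lamc1 (laminin) at 8.93 and 9.21.

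Of 23 matrix proteases and inhibitors, 13 (56.5%) exceeded the limit, beside 47.8% of all genes, and the brightest was an inhibitor. Timp2, an inhibitor of metalloproteinases, had levels of 11.74 and 11.73, and Timp1 and Timp3 averaged 9.79 and 9.32. The membrane-bound collagenase Mmp14 had 9.98 and 9.84, and Mmp2, the gelatinase that it activates, had 8.58 and 8.13. Mmp9, Mmp3 and Mmp13 were near background with means of 5.31, 4.66 and 2.93. Among plasminogen activators, Plat averaged 8.88, while Plau averaged 4.09 and was near background.

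Hox gene levels were patchy. Of 33 measured Hox genes, 11 (33.3%) exceeded the limit, beside 47.8% of all genes. That share is close to the 31.4% of genes with a single probe set, so the count itself sets Hox genes little apart. The 11 were 5 of 9 in cluster A, 1 of 9 in cluster B, 1 of 7 in cluster C and 4 of 8 in cluster D. By paralogue group, 1 of 10 genes of groups 1 to 4 exceeded it, 4 of 9 of groups 5 to 8, and 6 of 14 of groups 9 to 13. Hoxd13, which patterns digits and the genital tubercle, was the brightest with levels of 10.70 and 10.64, but its other probe set read 4.86 and 4.98. Its neighbours in the cluster were dim, since Hoxd12 had 3.51 and 3.14 and Hoxd11 had 4.35 and 4.47. Hoxa9 had levels of 8.19 and 8.0 and its other probe set averaged 6.38. Hoxa10 had 7.23 and 7.21, with its other probe set near background at 3.64 and 3.72, and Hoxa11, which patterns the middle segment of limbs, had 6.90 and 6.84. The other 7 Hox genes above the limit lay between 5.67 and 6.73, in the range of the receptor genes. Of these, Hoxa5 averaged 7.14 on a probe set not used.

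**Figure D4:**
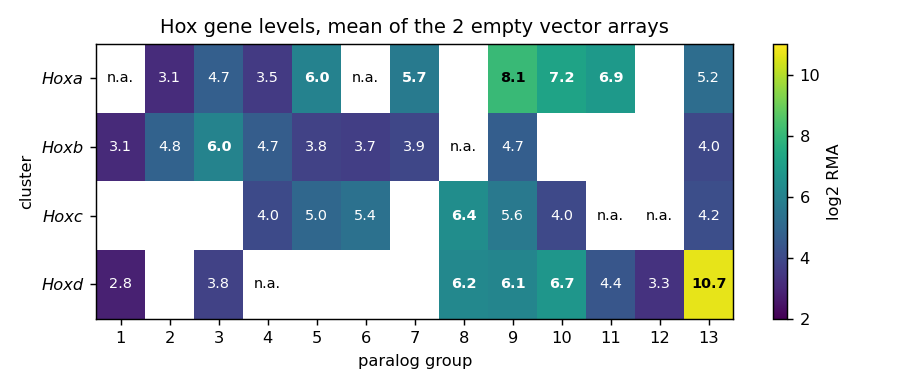
Grid of Hox gene levels in the empty vector arrays (mean log2 RMA, colour scale), with clusters A to D as rows and paralogue groups 1 to 13 as columns; each cell prints its mean, bold above the limit of 5.65, n.a. marks a gene not measured and blank cells are positions without a gene in mouse. Hoxd13 at 10.67 is the only bright gene at the group 13 end of cluster D, and Hoxa9, Hoxa10 and Hoxa11 stand at 8.10, 7.22 and 6.87, each on its brightest probe set.

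Other positional regulators were mixed. Tbx5, the T-box factor of the forelimb and heart, had levels of 7.48 and 7.20 on its brighter probe set and 4.59 and 4.2 on the other, which is near background. Its hindlimb counterpart Tbx4 had 4.02 and 4.43, and Pitx1, which specifies hindlimb, had 4.2 and 4.02. Gli3, a Hedgehog pathway factor that patterns digits, had levels of 9.33 and 9.14. Tbx15 and Tbx18, T-box factors of skin and skeletal mesenchyme, averaged 8.36 and 7.85. Msx1, of the distal limb and facial mesenchyme, had 8.19 and 7.42, and Shox2, of the proximal limb, had 6.13 and 6.10. In all, 12 of 23 limb and flank genes (52.2%) exceeded the limit, beside 47.8% of all genes. Of 34 regulators of head and visceral mesenchyme 12 (35.3%) did. They were led by Irx3 with 8.81 and 9.16 and the forkhead genes Foxc1 with 8.76 and 8.86 and Foxc2 with 7.90 and 8.36. Alx1 of the face, Otx2 of the anterior head and Tcf21 of visceral mesenchyme were near background, with means of 3.62, 3.0 and 4.05.

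Ligand genes exceeded the limit in a smaller share than receptor genes, a difference that was not tested. Of 199 genes of ligands and their secreted inhibitors 80 (40.2%) exceeded it, with a median of 5.06. Of 179 receptor genes 107 (59.8%) did, with a median of 6.10. The share was 47.8% for all genes, 64.5% for those with several probe sets and 31.4% for those with a single one. With the median over all probe sets of a gene, 61 ligand genes and 67 receptor genes exceeded the limit. Among 22 FGF genes only Fgf7, the keratinocyte growth factor of mesenchyme, exceeded the limit, with levels of 10.02 and 10.42. Fgf2 had levels of 2.89 and 2.78 and Fgf10 had 4.13 and 3.85. Receptors were broader, since Fgfr1 averaged 8.51 and Fgfr2 averaged 7.54. Rspo2, which amplifies WNT signals through LGR receptors, had 11.50 and 11.54 on 1 probe set, the highest level of a WNT or Hedgehog ligand gene, and 4.76 and 4.54 on the other, near background. Its receptor Lgr4 had 9.32 and 9.63. The related Lgr5 averaged 5.60, near background, and Wnt5a, a WNT of limb mesenchyme, averaged 5.94.

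Penk, the precursor of the enkephalin opioid peptides, which is also made by embryonic mesenchyme, had levels of 11.19 and 9.43 on its only probe set. The mean was 10.31 with an SD of 1.25, and the 2 arrays differed by 1.76, the largest difference of any gene. Its receptors were all near background. Oprm1 had levels of 5.52 and 5.5, Oprk1 had 5.20 and 5.35, and Oprd1 had 3.80 and 3.82. Among 33 neuropeptide and peptide hormone genes 9 (27.3%) exceeded the limit, beside 47.8% of all genes. After Penk came the vasodilator Adm with 8.23 and 7.98 on the probe set used and 9.47 and 9.62 on another.

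Among growth factors that signal mostly through receptor tyrosine kinases 21 of 33 (63.6%) exceeded the limit, a share close to the 64.5% of all genes with several probe sets, with a median of 6.14. Ptn, a heparin-binding factor of developing connective tissue, had levels of 10.21 and 10.45. The EGF receptor ligands Hbegf and Ereg averaged 9.56 and 9.18, beside 6.89 for Egfr. The macrophage growth factor Csf1 had levels of 9.45 and 9.64, beside 6.28 and 6.40 for its receptor Csf1r, a blood cell marker. Igf2, the fetal insulin-like growth factor, had 9.29 and 9.08, and its receptors Igf1r and Igf2r averaged 9.61 and 8.86. Pdgfc and Pdgfd averaged 9.17 and 8.46, Pdgfa averaged 6.91 and Pdgfb 4.26, near background. For Kitl and Angpt1, with means of 6.82 and 7.38, the receptors Kit and Tek were near background with means of 4.77 and 3.94.

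In the TGF-beta family 10 of 27 ligand genes (37.0%) and 10 of 14 receptor genes (71.4%) exceeded the limit, beside 47.8% of all genes. Tgfb2 had levels of 8.36 and 8.55 and Tgfb3 had 8.27 on both arrays, while Tgfb1 had 5.26 and 5.54, near background. The receptor Tgfbr2 had levels of 10.04 and 10.09, and Bmpr2, for bone morphogenetic proteins, had 9.73 and 9.46. The activin subunit Inhba averaged 8.01 and its antagonist Fst 9.02. Of the secreted inhibitors 19 of 25 exceeded the limit, beside 47.8% of all genes, with a median of 6.63 that lies within the range of the receptor genes, and 3 were among the brightest 1%. Fstl1, a follistatin-like glycoprotein, had levels of 12.35 and 12.52, the WNT-binding Sfrp2 had 11.22 and 11.53, and Gas1, a membrane-anchored Hedgehog coreceptor counted in this list, had 11.67 and 11.54.

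Cytokine genes were above the limit in 14 of 35 cases and cytokine receptor genes in 20 of 26. Cxcl12, the homing chemokine of stroma, had levels of 9.48 and 9.32. Its scavenging receptor Ackr3 had 8.80 and 9.29, and its signalling receptor Cxcr4 had 3.07 and 3.0. The neutrophil chemokine Cxcl1 had 9.11 and 8.47. Il6 was near background with 3.02 and 3.38, while Il6st, the shared signalling subunit of its family, had 10.90 and 10.99 and Osmr, which pairs with it, had 10.23 on both arrays. Lif, another ligand of that family, averaged 5.37, near background.

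Genes for receptors of matrix and of serum signals included some of the brightest of the listed receptor genes. Itgav, the integrin subunit that binds fibronectin and activates latent TGF-beta, had levels of 11.41 and 11.51. Its partners Itgb1 and Itgb5 had means of 9.68 and 9.18, and Itgb5 averaged 10.22 on a probe set not used. Of 32 matrix receptors 17 (53.1%) exceeded the limit, beside 47.8% of all genes. Among 33 G protein-coupled receptors 11 did, and the highest were F2r, the thrombin receptor, with 10.67 and 10.79, Lpar1, for lysophosphatidic acid, with 10.46 and 10.70, and S1pr3, for sphingosine phosphate, with 9.53 and 9.49. Axl, a receptor kinase for the vitamin K-dependent ligand Gas6, had levels of 9.22 and 9.85, beside 6.43 and 6.30 for Gas6. Tnfrsf12a, the receptor for TWEAK, averaged 10.12.

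Of 191 transcription factor genes 124 (64.9%) exceeded the limit, with a median of 6.51. This share is close to the 64.5% of all genes with several probe sets, and 47.8% of all genes exceeded the limit. After Hmga2 and Mycn, the highest was Sox4, a progenitor factor, with levels of 12.16 and 12.45, although its other 7 probe sets had means from 3.83 to 9.18. Foxp1, a forkhead repressor, had 11.06 and 11.19. Within the MYC network, Myc had levels of 6.86 and 6.88 on its only probe set, and the MYC antagonists Mxd3 and Mxd4 averaged 8.33 and 8.08. Max, the obligate partner of MYC proteins, had 4.25 and 4.41, near background on its only probe set. Serum response and AP-1 factors were above the limit in 22 of 27 cases, with Jund at 10.91 and 11.09 and Srf at 7.67 and 7.62.

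The mechanosensitive coactivators Yap1 and Wwtr1 had means of 9.73 and 9.65, and their DNA-binding partner Tead1 had levels of 9.49 and 9.52. Vgll3, a TEAD cofactor, averaged 10.33, and Tead4 was near background at 4.99. The TGF-beta and BMP mediators Smad4, Smad1 and Smad3 averaged 10.60, 9.71 and 8.65. Among mesenchymal factors, Tcf12 had 10.64 and 10.66, Zeb1 had 9.76 and 9.87, and Id3 had 9.99 and 10.08. Of 40 nuclear receptors 19 (47.5%) exceeded the limit, beside 47.8% of all genes. The brightest was Nr2c2 at a mean of 8.42, and the estrogen receptor Esr1 had 4.52 and 4.33.

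Cell cycle genes were nearly all above the limit, and so were several cell cycle inhibitors. Of 31 proliferation genes 30 (96.8%) exceeded the limit, beside 47.8% of all genes, with a median of 8.28. Ccnd2, a D-type cyclin, had levels of 11.44 and 10.97, the mitotic kinase Cdk1 had 10.86 and 11.14, and the replication clamp Pcna had 10.49 and 10.21. The exception was Tyms, thymidylate synthase, with 3.86 and 3.81. Cdkn1a, the inhibitor induced by p53, had levels of 9.35 and 9.0, and Cdkn2b had 8.95 and 8.71. Cdkn2a, a senescence locus that immortalized lines often lose, had 7.71 and 7.57. The RB family member Rbl1 averaged 7.64 and Rb1 6.51, and Tert, the telomerase subunit, averaged 4.56, near background. Of 17 glycolysis genes 15 (88.2%) exceeded the limit, led by Gapdh with 11.87 and 12.10.

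Imprinted genes, several of which act in fetal growth, exceeded the limit in 13 of 21 cases (61.9%). That is near the 64.5% of all genes with several probe sets, beside 47.8% of all genes. Gnas, which encodes a stimulatory G protein subunit, had levels of 11.32 and 11.52, and Grb10, an adaptor that restrains growth, had 11.30 and 11.37. Ndn, necdin, averaged 9.72, whereas Nnat, Zim1 and Peg10 were near background with means of 3.23, 3.0 and 4.27. Of the sex-linked genes, the Y-linked Uty had 7.06 and 7.08 and Eif2s3y had 5.79 and 6.16, the latter within the range of the receptor genes. The other probe sets of Uty averaged 4.73, 3.18 and 2.39 and that of Eif2s3y averaged 2.88, all near background. Xist, the RNA of the inactive X chromosome, had 5.63 and 5.58, near background. Of 54 ribosomal protein genes 43 exceeded the limit, with a median of 9.82, and 19 of them were among the brightest 1%.

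The 2 arrays were close but not equal. Of 18194 genes, 27 (0.148%) differed by at least 1 on the log2 scale, 21 of them higher on array 1 and 6 higher on array 2. After Penk came Igfbp2, an IGF-binding protein, with levels of 7.35 and 5.65, and the transcript AY036118 with 10.45 and 8.89. Asb5 was the most shifted in the other direction, with 4.70 and 6.23, followed by Sorbs2, an adaptor of actin structures, with 5.58 and 6.90. The matrix gene Thbs4 had 6.53 and 5.07, and Ndnf, a secreted factor, had 7.84 and 6.47. The immediate early genes Fos and Egr1 were both higher on array 1, Fos with 8.82 and 7.52 and Egr1 with 10.73 and 9.44, while Fosb was near background on both arrays with 3.56 and 3.81. Pdgfrl had 7.43 and 6.16, and the proteoglycan Dcn had 7.80 and 6.77.

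Some gene groups were shifted between the arrays, and those given here were chosen after their values were seen. Array 1 was higher for 50.3% of all genes, with a median difference of 0.00, whereas it was higher for 28 of 37 matrix glycoproteins and proteoglycans, with a median difference of 0.16. It was also higher for 19 of 23 collagen-processing genes, with a median of 0.12, and for 20 of 25 WNT and Hedgehog ligand genes, with a median of 0.12. Of these 25 ligand genes, however, 18 were near background. Over all genes the median absolute difference was 0.133. The largest median, 0.27, belonged to the CDK inhibitor and p53 pathway genes, of which 11 of 15 were higher on array 1. In the other direction, 3 of 13 E2F and RB family genes and 1 of 9 fat markers were higher on array 1, each list with a median of -0.12. Of the 9 fat markers, 5 were near background. For the 31 proliferation genes the median was -0.01 and for the 33 cytoskeletal genes it was 0.00. With 2 arrays of 1 group, no test of such differences was possible.

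**Figure D5:**
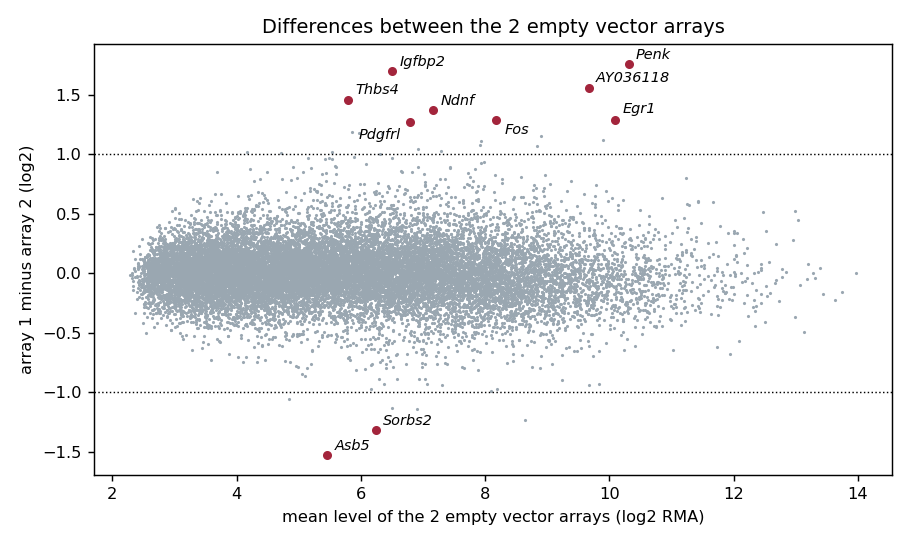
Difference between the 2 empty vector arrays (y axis, array 1 minus array 2, log2) against their mean level (x axis, log2 RMA) for the 18194 genes, with the 10 largest differences in red and named and dotted lines at 1 and -1. Most genes lie near 0 at all levels, Penk is highest at 1.76 and Asb5 lowest at -1.53.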

How the data were processed

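Values for 45101 probe sets were deposited by the authors on the log2 scale, after RMA, as the submitters' processing notes state. RMA's quantile step gives all arrays 1 distribution, so total RNA per cell cannot be read from it. The sources used here do not give its version, annotation or genome build. Per the labels' protocols the labelling kit was made for whole transcripts, whereas this array's probes lie near 3′ ends. Arrays give no depth, and 2 arrays limit the precision.

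The platform annotation gave 34958 probe sets 1 symbol and 932 several. The 10143 probe sets without a single gene, which include those 932, were left out, and 1440 of the 10143 exceeded the limit. For 34754 probe sets the Entrez ID was found in RefSeq and RefSeq's symbol was used. Per gene, the probe set with the highest mean over all 6 arrays was used, passing over IDs ending in _x_at where possible, and averaged over the 2 arrays (mean, SD). The 50 gene lists held 1155 genes, 1069 of them measured, and genes outside the table were not analysed here. Members and lists were chosen with earlier results of these data known. Named genes were the 25 brightest outside ribosomal protein and clone symbols, the brightest or defining list members, ligands beside receptors, the KDM5 genes and the 10 largest array differences. Others were added for context after their values were seen. No hypothesis was tested. Alternatives were other choices of probe set, limit, centring and array. The scripts were tested on simulated data and ran in Python 3.11.15 with pandas 2.3.3 and numpy 2.4.6.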

Additional observations from a re-analysis of the deposited data

How the results depend on the processing

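The 12 results were recomputed under 9 alternatives, giving 108 values. A count was taken as kept within a ratio of 1.5 to the reported count, and a level within its SD between the arrays: by this measure 95 values were kept, 13 moved and 0 reversed. Part of the 95 could not have moved. A changed limit alters neither a level nor the order of the brightest genes. With 2 arrays, a level from 1 array always lies within that SD of the mean. The number kept therefore overstates how robust the results are. Centring each array on its median and choosing probe sets on the 2 empty vector arrays left the counts nearly as they were. The wide SD of Penk hides that its level was 9.43 without replicate 1 and 11.19 without replicate 2, beside 10.31 for both. With a limit at the 90th percentile of receptor genes, 10079 genes and 46 markers of other cell types exceeded it, within that ratio of 8695 and 33. Without probe sets ending in _x_at or _s_at, 20 of the brightest 25 genes kept their place. With the limit at the 99th percentile, 5603 genes exceeded it instead of 8695, and so did 4 Hox genes instead of 11, 42 ligand genes instead of 80, 71 receptor genes instead of 107 and 7 markers of other cell types instead of 33. With the limit at the 95th percentile of liver and pancreas markers, these counts were 5 Hox genes, 48 ligand genes and 13 markers of other cell types. With the median over all probe sets of a gene, 19 markers of other cell types and 67 receptor genes exceeded the limit, 9 of the brightest 25 genes kept their place, Col3a1 had a level of 11.16 and Mycn had 3.94. Fibroblast markers above the limit ranged from 19 to 23 of 24 over the alternatives. No paired analysis was possible because the result comes from no test and only 1 group is described.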
